A study of Homo sapiens with 15 samples.

Results

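Melanocyte lineage and pigmentation genes were examined in MelJuSo, a human melanoma cell line, across 15 RNA sequencing libraries. The set is a list of 34 genes that mark melanocytes or their neural crest origin or that build, fill and move the pigment organelle. All 34 symbols matched 1 gene identifier each in release 29 of the GENCODE annotation of hg38, out of 58721 gene identifiers in the tables, and 28 of the 34 were among the 14961 genes with enough counts to test. The list was not chosen by measured values, but it was drawn up with earlier results of these data known.

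The libraries come from 5 lines with 3 replicates each, A, B and C. In 4 lines, dCas12a, a Cas12a protein that no longer cuts but is still led to DNA by guide RNAs, carries the activation domain VP64 and a 5xALFA tag, a peptide that a nanobody binds. The VP64 lines have a nanobody fused to a further VP64, and the p65 lines have a nanobody fused to p65, the activation domain of the RELA protein. Each pair has one line with a cassette of 3 CD4-targeting guides and one line with no cassette. The fifth line, here the line without an activation domain, has 5xALFA-dCas12a lacking VP64, a bare nanobody and no guide cassette. Every line therefore carries tagged dCas12a and a nanobody, and none is an unmodified MelJuSo culture. Each group is 1 line, and the labels do not say whether it is 1 clone, so the guide cassette, the activation domain and any other difference between lines cannot be told apart. The labels' protocol aliquots a suspension of confluent cells before freezing and does not say that A, B and C were separate cultures, so p-values reflect only how far these samples spread, which may be technical.

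Melanocytes arise from the neural crest, and SOX10, PAX3 and MITF are the transcription factors at the head of their gene programme. MITF binds M-box and E-box sequences before the genes of pigment synthesis, among them TYR, TYRP1 and DCT, whose enzymes make melanin inside melanosomes on fibrils built from PMEL. RAB27A, MLPH and MYO5A tie the finished melanosome to actin, and MC1R, KIT and EDNRB receive signals from neighbouring cells. Melanomas keep this programme to different degrees.

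Library totals ran from 15643705 to 23072512 expected counts. A limit of 3 counts, given here as a guide to what is detectable, corresponds to 0.13 to 0.192 CPM (counts scaled to library size). No class or test below used this limit. CD4, the targeted gene, was read in TPM, a transcript abundance scaled for length and depth. It stood at 899.6 to 953 in the VP64 libraries with guides and 937.6 to 1035 in the p65 libraries with guides, against 0.53 to 5.61 in the others. This matches the guide labels of all 15 libraries. By the edgeR test used below, CD4 did not pass for p65 against VP64, without guides (adjusted p = 0.485) or with guides (adjusted p = 0.556). It therefore cannot check the VP64 and p65 labels. T cell markers (CD3D, CD3E, CD2 and CD8A) summed to 0 to 0.3 TPM per library, and CD3D and CD2 were listed at 0 in every library. Keratinocyte and epithelial markers (KRT5, KRT14, EPCAM and CDH1) summed to 2.09 to 6.80 TPM, and neither of the 2 that were tested passed in any comparison. The melanocyte identity of the cells was not tested apart from the listed genes themselves. Of these, SOX10, PMEL, TYR and MITF had counts in all 15 libraries, whereas MLANA, KIT, SLC24A5, SLC45A2, TRPM1 and IRF4 had few or none.

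The M-box core was searched in the RefSeq promoter windows, which run from 250 bases before to 50 bases after an annotated start on GRCh38.p14. Of the 34 genes, 26 had a window, and these had 41 windows. PMEL, SOX10, SLC45A2, RAB38, ERBB3, S100B, SNAI2 and TBX2 had none and were not searched. The letters CATGTG, or CACATG on the other strand, stood in 13 of the 41 windows (31.7%, from 12 genes), against 3897 of all 35116 windows (11.1%). The related E-box CACGTG stood in 3 of 41 (7.32%, against 7.26% of all windows), and ACAAAG or CTTTGT, a SOX-type motif, in 8 of 41 (19.5%, against 16.1%). The 3 motifs have different letters but windows of 1 gene can overlap in sequence. A match is a description of these letters and not a measured binding site.

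The stretches with CATGTG are shown for 4 expressed genes and 2 genes with few or no reads, because the same letters stood before both kinds. Each is 30 bases, 5′ to 3′ on the strand of the gene, with CATGTG or CACATG in capitals, and the number after the name is the distance of the first capital from the annotated start. Those of TYR, GPNMB, GPR143 and SLC24A5, as well as the TYRP1 stretch at -11 and the TRPM1 stretch at -8, also overlap an exon annotated by GENCODE.
TYR at -104 (chr11:89177759-89177788, plus strand): agaaaagtcagtCATGTGcttttcagagga
TYR at -12 (chr11:89177851-89177880, plus strand): tctcagccaagaCATGTGataatcactgta
TYRP1 at -144 (chr9:12693229-12693258, plus strand): ttggaagggaatCATGTGctgatcaagtcc
TYRP1 at -11 (chr9:12693362-12693391, plus strand): caggcagcaatcCACATGcacttaacagtt
GPNMB at -123 (chr7:23246640-23246669, plus strand): gtgagtcataagCACATGagttgtaagagg
GPNMB at -62 (chr7:23246701-23246730, plus strand): gcttaataccatCACATGatcctccccgag
GPR143 at -61 (chrX:9765891-9765920, minus strand): agaggcccagggCACATGatgccgccccca
GPR143 at -33 (chrX:9765863-9765892, minus strand): cagcccgcccagCACATGacccaggcaggc
SLC24A5 at -15 (chr15:48120963-48120992, plus strand): aaggagactcctCACATGatccagtttaat
TRPM1 at -8 (chr15:31161151-31161180, minus strand): accaaaagccagCACATGctcctcctaggc
TRPM1 at -56 of a second start (chr15:31101764-31101793, minus strand): ggcccaagtgctCACATGctcctcatgggg

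For DCT, the only listed gene for which the difference between the VP64 and p65 guide effects passed the test, the whole 250 bases before the start of the GENCODE gene are shown. They hold the letters at -215 and -134, and a second RefSeq start of DCT holds none.
DCT (chr13:94479683-94479932, minus strand, GRCh38.p14): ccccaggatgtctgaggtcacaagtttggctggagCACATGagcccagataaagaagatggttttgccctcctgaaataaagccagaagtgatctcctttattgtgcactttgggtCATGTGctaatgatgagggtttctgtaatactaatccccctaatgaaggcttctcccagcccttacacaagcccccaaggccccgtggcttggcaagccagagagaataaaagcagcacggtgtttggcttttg

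The first question was which of these genes MelJuSo cells express. A gene was called expressed with a mean of at least 1 TPM in each of the 5 lines and silent with a mean under 0.1 TPM in each. By this rule 25 genes were expressed, 3 were silent (SLC24A5, KIT and IRF4) and 6 were low or differed between lines (DCT, MLANA, OCA2, SLC45A2, TRPM1 and GPM6B). The rule uses mean TPM and not the limit of 3 counts. MLANA, with 24 counts in total, and SLC45A2, with 5, were therefore low, whereas IRF4, with 39, was silent. The expressed genes include the transcription factors SOX10, PAX3, TFAP2A and TBX2, the melanosome proteins GPNMB and PMEL, and every listed gene of melanosome traffic. The genes that were silent or low include all 4 listed transporters and channels (OCA2, SLC24A5, SLC45A2 and TRPM1).

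Among transcription factors, SOX10 was by far the highest, at 122 to 237 TPM over the 15 libraries. TFAP2A, a neural crest factor, ran from 21.5 to 29.99 TPM, TBX2, a T-box repressor, from 14 to 19.1, and PAX3 from 11.3 to 16.0. MITF was much lower, at 2.88 to 4.39 TPM, and so were SNAI2 (1.23 to 5.00), a repressor known from neural crest migration, and FOXD3 (1.17 to 2.79), a factor of the early crest. IRF4, which acts with MITF at the TYR gene, reached at most 0.21 TPM, with 39 counts over all 15 libraries.

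GPNMB, a melanosome glycoprotein, ran from 107 to 194 TPM and PMEL from 7.08 to 15.1. The 3 enzymes of melanin synthesis were lower. TYR, which catalyses the first step, ran from 2.72 to 5.59 TPM, TYRP1 from 1.03 to 4.92, and DCT, the dopachrome tautomerase, from 0.77 to 1.66, so that DCT fell on both sides of 1 TPM. MLANA, the melanosome antigen also called MART-1, had 24 counts over the 15 libraries, was at 0 in 2 of them and reached 0.53 TPM in 1 library of the p65 line without guides. That value rests on 2 counts in library A, and the length assigned to MLANA ran from 237 to 2077 bases between libraries. Without replicate A of each line, MLANA was silent by the rule above. PMEL overlaps CDK2 on the opposite strand, and the sources used here do not say whether counting used strand, so its reads cannot be told apart from those of CDK2, which stood at 85.9 to 144 TPM.

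GPR143, a receptor in the melanosome membrane that sets organelle size, ran from 36.9 to 52.3 TPM and was grouped with the transporters and channels, which were far lower. OCA2, a membrane protein tied to melanosome pH, ran from 0.19 to 1.21 TPM. SLC24A5 had 12 counts in total and was at 0 in 9 libraries, including the 3 of the line without an activation domain and the 3 of the p65 line with guides. SLC45A2 had 5 counts and was at 0 in 13 libraries, and its mean of 0.2 TPM in the p65 line with guides rests on library C alone (0, 0 and 0.6 TPM). TRPM1, a cation channel gene that hosts MIR211, had 43 counts and reached 0.68 TPM. At these depths a level below the limit of 3 counts per library is not reliably detectable, and none of the 6 untested genes can be compared between lines.

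The genes of melanosome traffic were all expressed. MLPH, the linker between RAB27A and the motor, ran from 36.2 to 88.2 TPM, RAB38, a GTPase that delivers enzymes to melanosomes, from 19.7 to 27.6, MYO5A, the motor, from 13.4 to 19.5, and RAB27A from 12.1 to 15.9. Of the receptors, ERBB3, which binds neuregulins, ran from 4.52 to 17.9 TPM, MC1R, the melanocortin receptor, from 4.97 to 7.78, and EDNRB, the endothelin receptor, from 1.24 to 2.40. KIT, the receptor of stem cell factor, had 10 counts in total and was at 0 in 9 libraries. The other lineage genes ran high for the secreted protein MIA (73.1 to 180 TPM), the calcium-binding proteins S100B (34.9 to 195) and S100A1 (19.3 to 72.4) and the glutaminyl cyclase QPCT (12.3 to 47.9). BCL2A1, an inhibitor of apoptosis, ran from 3.85 to 9.58 TPM, the protease CAPN3 from 1.30 to 4.77 and the membrane protein GPM6B from 0.07 to 0.69.

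**Figure D1:**
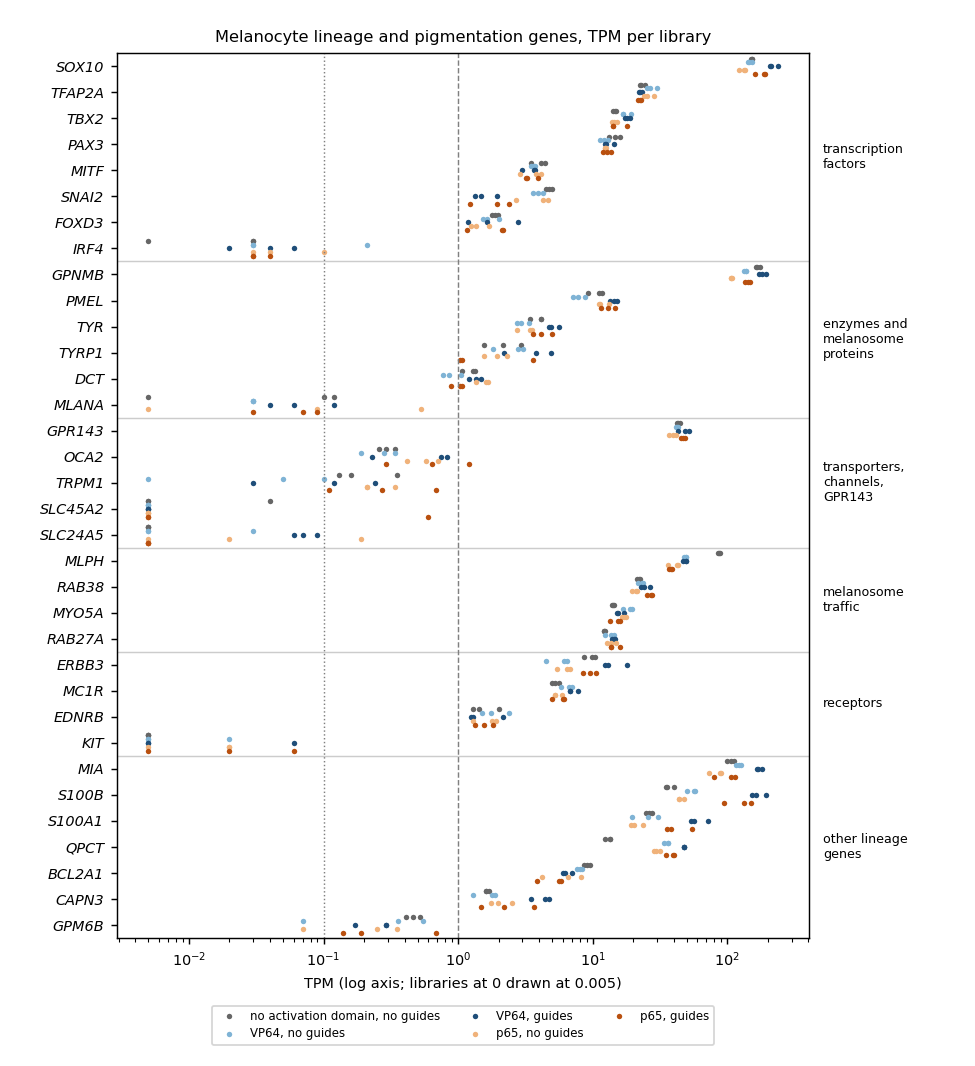
TPM of the 34 genes on a log axis, grouped by role; each point is 1 library, coloured by line, the dashed line marks 1 TPM, the dotted line 0.1 TPM, and libraries at 0 are drawn at 0.005. SOX10, GPNMB and MIA lie at 73.1 TPM or above in every library, S100B lies at 34.9 to 57.2 without guides and 94.2 to 195 with guides, MITF, TYR and TYRP1 between 1.03 and 5.59, and IRF4, SLC24A5 and KIT at 0.21 or below.

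Guides were then compared with no guides in each pair of lines, by edgeR's quasi-likelihood test with Benjamini-Hochberg adjustment over all 14961 genes and a threshold of 0.05. With VP64, 15 of the 28 tested genes rose and 3 fell, with a median log2 fold change of 0.33, whereas 19.3% of all tested genes rose and 21.3% fell, with a median of 0.00. With p65, 10 rose and 4 fell, with a median of 0.16, whereas 18.7% of all tested genes rose and 20.2% fell, with a median of -0.01. The 2 pairs share no libraries. In both pairs 9 genes rose (ERBB3, GPNMB, GPR143, MIA, PMEL, QPCT, S100A1, S100B and SOX10) and 3 fell (MYO5A, SNAI2 and TFAP2A), against 13.8% and 15.8% of all tested genes that rose or fell in both, while 8 passed in neither, MITF among them. In bulk libraries, fewer cells that express a gene and less RNA per cell cannot be told apart.

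The transcription factors split. SOX10 (ENSG00000100146.16, chromosome 22, 37970686 to 37987422, minus strand) stood at 153, 142 and 144 TPM in the VP64 line without guides and at 211, 237 and 206 TPM with guides. With p65 it went from 122, 134 and 136 TPM to 190, 186 and 161. In both pairs every library with guides was above every library without. The log2 fold change was 0.54 (SE 0.058, adjusted p = 1.42e-07) with VP64 and 0.45 (SE 0.058, adjusted p = 2.04e-06) with p65. POLR2F, which overlaps SOX10 on the opposite strand, stood at -0.14 and -0.09 (adjusted p = 0.0724 and 0.216).

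SNAI2 fell most. Its 3 libraries were at 3.62, 3.90 and 4.24 TPM in the VP64 line without guides and at 1.47, 1.33 and 1.96 TPM with guides, and at 2.71, 4.64 and 4.30 against 1.95, 1.23 and 2.38 TPM in the p65 lines. No library with guides reached the lowest one without. The log2 fold change was -1.33 (SE 0.203, adjusted p = 1.67e-05) with VP64 and -1.10 (SE 0.197, adjusted p = 1.16e-04) with p65. TFAP2A fell by a smaller amount, from a mean of 27.4 ± 2.35 to 22.7 ± 0.486 TPM with VP64 and from 25.8 ± 2.32 to 22.3 ± 0.640 with p65 (SD, n = 3), with log2 fold changes of -0.28 and -0.19 (SE 0.051 each, adjusted p = 1e-04 and 0.0048). Its p65 call was lost with an offset for effective length, the transcript length RSEM assigned in each library (adjusted p = 0.0628).

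TBX2 passed with VP64 only (0.22, SE 0.065, adjusted p = 0.00985), where its mean TPM was 17.6 ± 1.33 without and 18.03 ± 0.732 with guides. The call was lost without library C of the VP64 line without guides (0.18, adjusted p = 0.0512) and with an offset for effective length (0.03). MITF stood at 3.45, 3.60 and 3.73 TPM without and 2.97, 3.65 and 3.75 with guides in the VP64 lines, and at 2.88, 3.82 and 4.14 against 3.90, 3.24 and 3.20 in the p65 lines. The libraries overlapped in both pairs, and the log2 fold changes were 0.11 (SE 0.126, adjusted p = 0.526) and 0.04 (SE 0.123, adjusted p = 0.823). PAX3 stood at 0.08 and 0.06 (SE 0.075 and 0.074), and FOXD3 at 0.10 and 0.36 (SE 0.277 and 0.279). None of these 3 genes passed in either pair, which does not show that they were equal.

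Of the 5 tested enzymes and melanosome proteins, 4 rose with VP64 and none fell, against 19.3% and 21.3% of all tested genes. With p65, 2 rose and 1 fell, against 18.7% and 20.2%. GPNMB (ENSG00000136235.16, chromosome 7, 23235967 to 23275108, plus strand) stood at 139, 133 and 138 TPM in the VP64 line without guides and at 172, 194 and 181 with guides. With p65 it stood at 107, 107 and 108 TPM without and 146, 144 and 135 with guides. The groups did not overlap, and the log2 fold change was 0.43 in both pairs (SE 0.042 each, adjusted p = 4.59e-08 and 5.41e-08).

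PMEL went from 8.74, 7.71 and 7.08 TPM to 15.1, 14.4 and 13.4 TPM with VP64 guides, without overlap (log2 fold change 0.61, SE 0.123, adjusted p = 3.4e-04). In the p65 lines it stood at 11.1, 11.2 and 13.2 TPM without and 11.6, 14.7 and 12.98 with guides. The TPM of these p65 libraries overlap although the counts passed (0.36, SE 0.12, adjusted p = 0.0212), and the call was lost without library B of the p65 line with guides (0.28, adjusted p = 0.116), without library C of the p65 line without guides (0.25, adjusted p = 0.131) and with an offset for effective length (0.16, adjusted p = 0.394). CDK2, its opposite-strand neighbour, fell in both pairs (-0.18 and -0.32, adjusted p = 4.77e-04 and 4.17e-07).

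TYR (ENSG00000077498.8, chromosome 11, 89177452 to 89295759, plus strand) stood at 3.38, 2.74 and 2.94 TPM in the VP64 line without guides and at 4.77, 4.87 and 5.59 with guides, without overlap (0.66, SE 0.148, adjusted p = 9.73e-04). In the p65 lines it stood at 3.40, 3.52 and 2.72 TPM without and 4.12, 5.02 and 3.60 with guides (0.37, SE 0.151, adjusted p = 0.0565). All 3 p65 libraries with guides were above the 3 without in TPM but not in CPM, and the difference did not pass. The difference between the 2 guide effects did not pass either (-0.29, SE 0.211, adjusted p = 0.657).

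TYRP1 stood at 2.77, 3.04 and 1.83 TPM without and 3.78, 4.92 and 2.20 TPM with VP64 guides, with overlap in TPM and none in CPM. Its log2 fold change of 0.80 (SE 0.277, adjusted p = 0.0242) rests on 588 counts over all 15 libraries. The call was lost without library A or B of the VP64 line with guides (adjusted p = 0.0612 and 0.104), without library C of the line without guides (0.61, adjusted p = 0.113) and with the effective-length offset (0.50, adjusted p = 0.458). With p65, TYRP1 stood at 0.11 (SE 0.278, adjusted p = 0.796).

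DCT (ENSG00000080166.15, chromosome 13, 94436808 to 94479682, minus strand) went the other way in the p65 lines. It stood at 1.36, 1.66 and 1.60 TPM in the p65 line without guides and at 0.88, 1.07 and 1.03 with guides, a fall without overlap (-0.68, SE 0.159, adjusted p = 0.00166). In the VP64 lines it stood at 1.05, 0.86 and 0.77 TPM without and 1.36, 1.49 and 1.21 with guides, also without overlap, but the difference did not pass (0.41, SE 0.167, adjusted p = 0.0558). The line without an activation domain, at 1.06, 1.30 and 1.34 TPM, overlapped both lines with guides.

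GPR143 and OCA2, the tested genes of the group of GPR143, transporters and channels, both passed with VP64. GPR143 rose in both pairs by a small amount, from a mean of 42.3 ± 0.597 to 47.9 ± 4.83 TPM with VP64 and from 39.2 ± 2.34 to 46.7 ± 1.39 with p65 (log2 fold change 0.17 and 0.21, SE 0.063 and 0.062, adjusted p = 0.0391 and 0.00921). In TPM, library C with VP64 guides (42.7) lay within the range without guides. With VP64 the call was lost without library A of the line with guides (0.11, adjusted p = 0.192), without library A, B or C of the line without guides (adjusted p = 0.081, 0.0667 and 0.0586), with a replicate block (adjusted p = 0.0508), with only the libraries compared (adjusted p = 0.0531) and with the effective-length offset (adjusted p = 0.0993). OCA2 stood at 0.19, 0.28 and 0.34 TPM without and 0.23, 0.74 and 0.83 with VP64 guides. The groups overlapped, and the call (1.12, SE 0.433, adjusted p = 0.0422) was lost without library B or C of the line with guides (adjusted p = 0.162 and 0.158), without library A or B of the line without guides (adjusted p = 0.143 and 0.079), with only the libraries compared (adjusted p = 0.0628) and with the effective-length offset (adjusted p = 0.114).

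Of the 4 melanosome traffic genes, none rose and 1 fell with VP64 guides, against 19.3% and 21.3% of all tested genes. With p65 guides 1 rose and 1 fell, against 18.7% and 20.2%. MYO5A fell in both pairs, from 18.4 ± 1.38 to 15.9 ± 1.09 TPM with VP64 and from 17 ± 0.521 to 14.9 ± 1.32 with p65 (log2 fold change -0.26 and -0.18, SE 0.061 each, adjusted p = 0.00163 and 0.0188). Without library A of the VP64 line with guides the first was -0.17 (adjusted p = 0.0217). The second was lost without library C of the p65 line with guides (adjusted p = 0.0504), without library A or B of the line without guides (adjusted p = 0.118 and 0.0624) and with the effective-length offset (adjusted p = 0.0765).

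RAB38 rose with p65, from 20.8, 19.7 and 21.4 to 27.1, 27.6 and 25.5 TPM, without overlap (0.39, SE 0.069, adjusted p = 1.11e-04), and stood at 0.11 with VP64 (SE 0.070, adjusted p = 0.245). The difference between these effects did not pass (0.28, SE 0.098, adjusted p = 0.219). MLPH (0.04 and -0.08) and RAB27A (-0.00 and -0.01) passed in neither pair, with standard errors of 0.060 to 0.075.

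Among the receptors, ERBB3 (ENSG00000065361.15, chromosome 12, 56076799 to 56103505, plus strand) rose in both pairs. It stood at 6.12, 6.45 and 4.52 TPM in the VP64 line without guides and at 12.3, 17.9 and 12.9 with guides. ERBB3 in the p65 lines stood at 5.38, 6.73 and 6.43 TPM without and 10.6, 9.48 and 8.51 with guides. Neither pair overlapped. Mean CPM was 3.01-fold higher with VP64 guides (log2 fold change 1.59, SE 0.106, adjusted p = 1.32e-10) and 2.03-fold higher with p65 guides (1.016, SE 0.111, adjusted p = 2.29e-07). With the effective-length offset the p65 value was 0.64 (adjusted p = 0.00754). The effective length assigned to ERBB3 ran from 2253 to 4118 bases between libraries. AC034102.2, a protein-coding gene, overlaps ERBB3 on the same strand, so the ERBB3 reads are uncertain. The difference between the 2 guide effects was -0.58 (SE 0.155) and did not pass (adjusted p = 0.0835).

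MC1R stood at 0.08 and 0.07 (SE 0.099 and 0.101) and EDNRB at 0.25 and -0.07 (SE 0.212 and 0.213) with VP64 and p65 guides, and neither passed. MC1R shares its strand and part of its locus with TCF25, so its reads are uncertain. TCF25 rose in both pairs (0.22 and 0.23).

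The other lineage genes include S100B, which rose most in both pairs. Of these 7 genes, 6 rose with VP64 guides, against 19.3% of all tested genes, and 4 rose with p65 guides, against 18.7%. None fell, against 21.3% and 20.2% of all tested genes. S100B (ENSG00000160307.9, chromosome 21, 46598962 to 46605208, minus strand) stood at 57.2, 50.1 and 57.0 TPM in the VP64 line without guides and at 154, 195 and 163 with guides. Its p65 libraries stood at 43.6, 47.9 and 43.7 TPM without and 151, 132 and 94.2 with guides. Every library with guides was above every library without, and library C of the p65 line was the lowest with guides. Mean CPM was 3.12-fold higher with VP64 guides (log2 fold change 1.65, SE 0.118, adjusted p = 4.02e-10) and 2.86-fold higher with p65 guides (1.51, SE 0.122, adjusted p = 2.41e-09).

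S100A1 (ENSG00000160678.11, chromosome 1, 153627926 to 153632039, plus strand) stood at 30.4, 25.9 and 19.7 TPM without and 53.4, 72.4 and 56.6 TPM with VP64 guides, and at 20.3, 23.4 and 19.3 against 54.7, 38.4 and 35.6 in the p65 lines. The groups did not overlap (1.251, SE 0.167, adjusted p = 2.87e-06 with VP64, and 1.10, SE 0.173, adjusted p = 2.57e-05). Its opposite-strand neighbour S100A13 rose too (0.55 and 0.43, SE 0.062 each), and reads of the 2 genes cannot be told apart without strand.

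MIA rose from 123, 126 and 116 to 165, 180 and 170 TPM with VP64 guides, without overlap (0.53, SE 0.098, adjusted p = 1.37e-04). In the p65 lines it stood at 89.2, 73.1 and 88.2 TPM without and 115, 107 and 79.0 with guides, where library C overlapped the line without guides (0.36, SE 0.105, adjusted p = 0.00918). That call was lost without library A of the p65 line with guides (0.26, adjusted p = 0.0799), without library B of the line without guides (0.27, adjusted p = 0.0623) and with the effective-length offset (adjusted p = 0.12). MIA shares its strand and locus with the readthrough gene MIA-RAB4B, which reached at most 1.42 TPM.

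QPCT rose from 33.7, 36.4 and 36.2 to 47.8, 47.8 and 47.9 TPM with VP64 guides and from 31.8, 28.4 and 29.5 to 39.5, 39.9 and 35.0 TPM with p65 guides, without overlap (0.43 and 0.36, SE 0.054 and 0.056, adjusted p = 1.37e-06 and 1.76e-05). CAPN3 rose with VP64 guides, from 1.30, 1.78 and 1.88 to 4.44, 4.77 and 3.47 TPM (1.40, SE 0.320, adjusted p = 0.00119), and stood at 0.28 with p65 (SE 0.326, adjusted p = 0.531). The difference between the 2 did not pass (-1.11, SE 0.459, adjusted p = 0.323). AC012651.1, a protein-coding gene, overlaps CAPN3 on the same strand. BCL2A1 stood at -0.28 and -0.25 (SE 0.216 and 0.226) and passed in neither pair.

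GPM6B passed with VP64 (1.46, SE 0.478, adjusted p = 0.0162) on 134 counts in all 15 libraries, but its TPM did not follow: 0.07, 0.36 and 0.55 without and 0.29, 0.29 and 0.17 with guides. The effective length that RSEM assigned to it ran from 602 to 3613 bases between libraries. With an offset for that length the log2 fold change was 0.08 (adjusted p = 0.955), and the call was also lost without library A of the line with guides (1.31, adjusted p = 0.0581) and without the filter on low counts (adjusted p = 0.054).

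**Figure D2:**
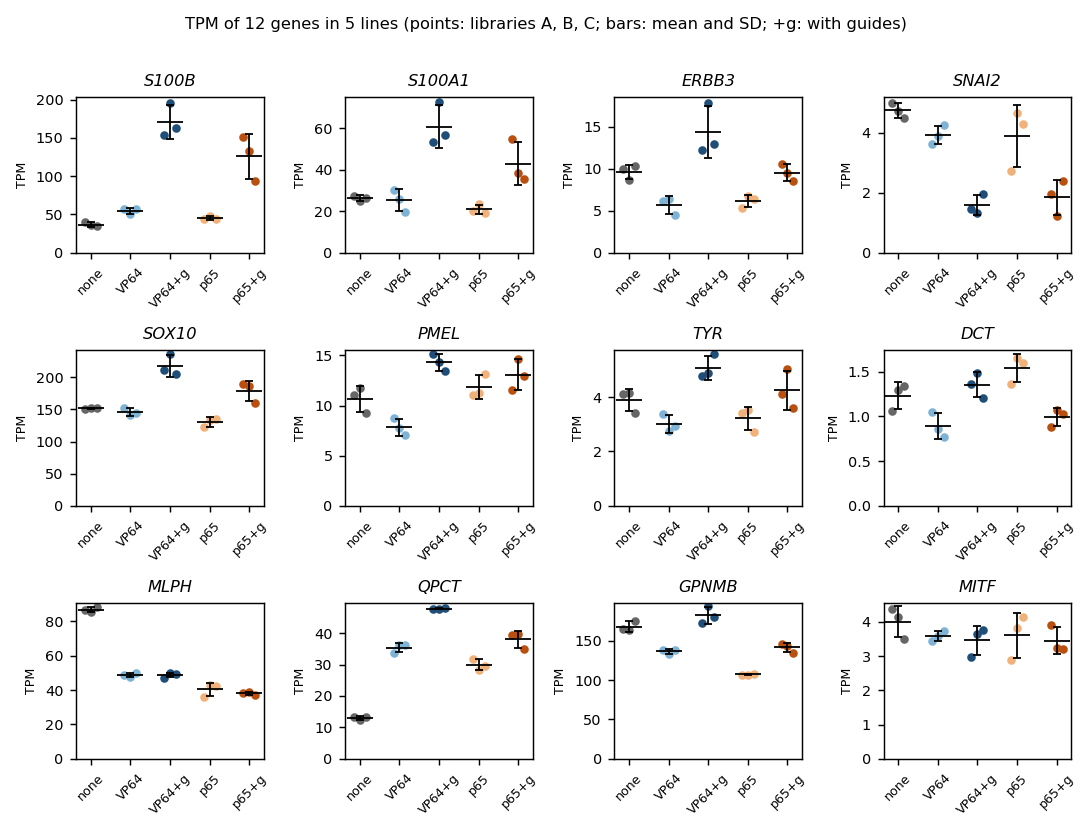
TPM of 12 of the genes in the 5 lines; points are libraries A, B and C, the horizontal bars the mean and the whiskers 1 SD (n = 3), on linear axes from 0. S100B, S100A1, ERBB3 and SOX10 are higher and SNAI2 lower with guides in both pairs, DCT is higher with VP64 guides and lower with p65 guides in all 3 libraries, and MLPH and QPCT separate the line without an activation domain (means of 86.9 and 13.01 TPM) from the other 4.

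**Figure D3:**
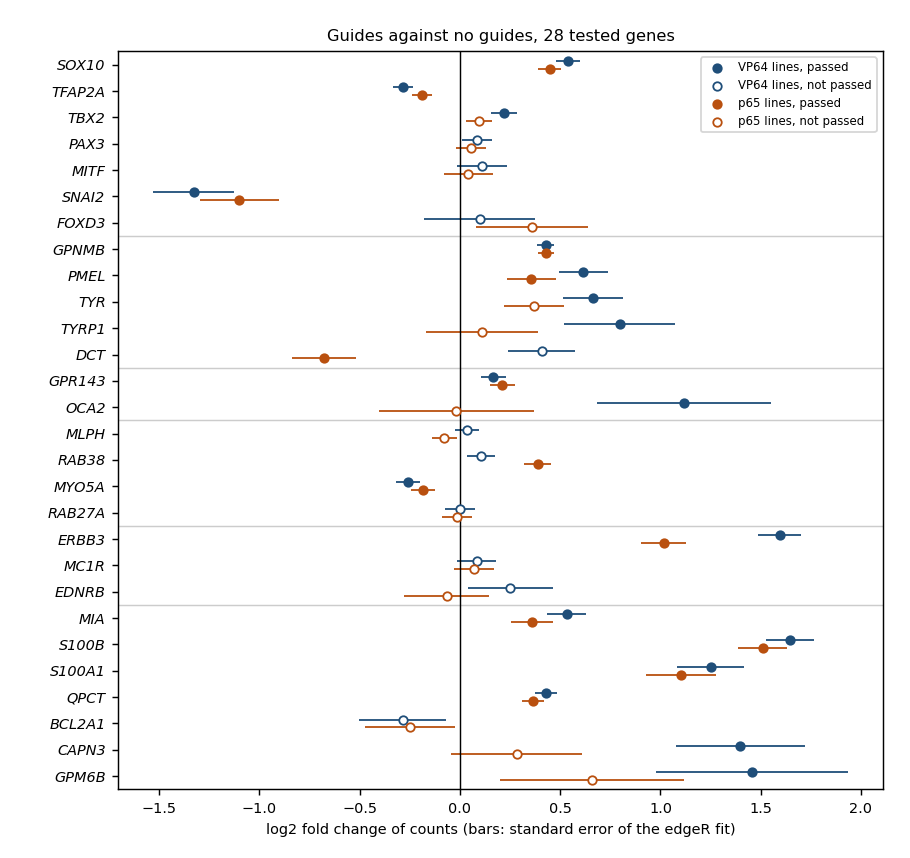
Log2 fold change of counts, guides against no guides, for the 28 tested genes grouped by role; blue is the VP64 pair, orange the p65 pair, filled points passed an adjusted p of 0.05, and bars are 1 standard error. ERBB3, S100B and S100A1 lie above 1 in both pairs, SNAI2 lies below -1 in both, and DCT lies at 0.41 with VP64 and -0.68 with p65.

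Some markers of other cell types or of the neural crest moved with guides, and others did not. Of the 4 tested Schwann and neural crest markers, 2 rose with VP64 guides and 0 with p65 guides. None of the 4 tested myeloid or 2 tested epithelial markers passed in either pair. Of all tested genes, 19.3% rose and 21.3% fell with VP64 guides, and 18.7% and 20.2% with p65 guides. CDH19, a cadherin of Schwann cell precursors named here after its values were seen, stood at 1.04, 1.26 and 1.55 TPM in the VP64 line without guides and 2.67, 3.44 and 1.95 with guides, and it rose (0.93, SE 0.186, adjusted p = 3.49e-04). With p65 it stood at 0.49 (SE 0.222, adjusted p = 0.0861), and FABP7, a marker of glial precursors, was listed at 0 in every library. Fibroblast markers (COL1A1, PDGFRA and DCN) summed to 2.06 to 3.81 TPM without and 4.15 to 5.64 with guides in the VP64 lines. In the p65 lines they summed to 2.26 to 7.49 without and 9.31 to 10.8 with guides. Of the 2 tested, 1 rose with VP64 guides and 2 with p65 guides, against 19.3% and 18.7% of all tested genes. NGFR, a neural crest receptor also named after its values were seen, rose from 54.1, 47.5 and 48.2 to 82.7, 95.6 and 84.6 TPM with VP64 guides and from 23.6, 28 and 28.6 to 50.1, 49.5 and 37.9 with p65 guides (0.80 and 0.79, SE 0.081 and 0.085). The part of such changes in the results above was not tested.

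The lines without guides were compared with the line without an activation domain. Below, with VP64 and with p65 name these whole lines, both of which carry dCas12a fused to VP64. The activation domains and any other difference between lines cannot be told apart here. With VP64, 5 of the 28 genes rose and 7 fell, against 23.6% and 24% of all tested genes. With p65, 3 rose and 9 fell, against 24.7% and 24.9%. The median log2 fold change of the tested genes was -0.17 in both, against -0.01 over all genes. The falls lie near the background share or somewhat above it, and the rises lie below it. These 2 comparisons share the libraries of the line without an activation domain, so their values are given side by side and do not support each other. Each also shares its VP64 or p65 libraries without guides, with opposite sign, with the guide comparison above. A gene that moved one way here and the other way with guides is therefore not 2 separate results. ERBB3, GPM6B, GPNMB, MLPH and PAX3 fell in both, and MYO5A, QPCT and TFAP2A rose in both.

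MLPH (ENSG00000115648.13, chromosome 2, 237485428 to 237555318, plus strand) stood at 86.7, 85.7 and 88.2 TPM in the line without an activation domain, at 48.9, 47.7 and 49.7 in the VP64 line and at 36.2, 43.1 and 42.1 in the p65 line. The 3 groups did not overlap. The log2 fold change was -0.82 with VP64 (SE 0.058, adjusted p = 1.77e-10) and -1.10 with p65 (SE 0.058, adjusted p = 1.75e-12). MYO5A, the motor that MLPH recruits, rose from 14.2, 13.9 and 14.5 TPM to 16.8, 19.5 and 18.8 with VP64 and 17.5, 16.5 and 16.97 with p65 (0.30 and 0.21, SE 0.061 each, adjusted p = 3.23e-04 and 0.00529). RAB38 (0.01 and -0.14) and RAB27A (0.06 and 0.15) did not pass.

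QPCT (ENSG00000115828.16, chromosome 2, 37342827 to 37373322, plus strand) rose by the largest amount of the 28 genes in both comparisons. It stood at 13.3, 12.3 and 13.4 TPM in the line without an activation domain, at 33.7, 36.4 and 36.2 with VP64 and at 31.8, 28.4 and 29.5 with p65. The log2 fold change was 1.39 (SE 0.061, adjusted p = 1.07e-13) and 1.16 (SE 0.062, adjusted p = 1.96e-12), or 2.63-fold and 2.23-fold by mean CPM. An antisense gene, AC007391.2, overlaps it.

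ERBB3 stood at 9.94, 8.67 and 10.3 TPM in the line without an activation domain, above all libraries of the VP64 line (4.52 to 6.45) and of the p65 line (5.38 to 6.73). The log2 fold change was -1.14 (SE 0.108, adjusted p = 1.62e-08) with VP64 and -1.29 (SE 0.108, adjusted p = 2.2e-09) with p65, and the latter was -0.67 with the effective-length offset (adjusted p = 0.00353). The p65 line with guides, at 8.51 to 10.6 TPM, lay at the level of the line without an activation domain, which the 2 comparisons above do not test. MC1R passed with VP64 (0.26, SE 0.099, adjusted p = 0.0375) and stood at 0.02 with p65 (SE 0.1, adjusted p = 0.886). The MC1R call was lost without library A or B of either line (adjusted p = 0.12 and 0.134 for the VP64 line, 0.105 and 0.0729 for the line without an activation domain), without the low-count filter (adjusted p = 0.0607), with the effective-length offset (adjusted p = 0.09) and in DESeq2 (adjusted p = 0.0635).

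GPNMB fell from 165, 163 and 176 TPM to 139, 133 and 138 with VP64 and to 107, 107 and 108 with p65, without overlap (-0.37 and -0.73, SE 0.042 each, adjusted p = 2e-07 and 6.49e-12). DCT passed with VP64 (-0.40, SE 0.163, adjusted p = 0.0475) and stood at 0.37 with p65 (SE 0.153, adjusted p = 0.0512). The DCT call was lost without library B or C of the VP64 line (adjusted p = 0.0995 and 0.169), without library A or B of the line without an activation domain (adjusted p = 0.063 and 0.242, the latter at -0.27), without the low-count filter (adjusted p = 0.147), with DESeq2 size factors (adjusted p = 0.0526), with only the libraries compared (adjusted p = 0.0733) and in DESeq2 (adjusted p = 0.0968). PMEL (-0.12 and 0.09), TYR (-0.23 and -0.30) and TYRP1 (-0.39 and -0.21) did not pass in either, nor did GPR143 (-0.07 and -0.13) and OCA2 (-0.20 and 0.87).

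Of the transcription factors, PAX3 fell from 14.6 ± 1.40 to 12.1 ± 0.872 TPM with VP64 and 12.5 ± 0.186 with p65 (-0.32 and -0.28, SE 0.072 each, adjusted p = 8.46e-04 and 0.00275). TFAP2A rose (0.28, SE 0.050, adjusted p = 9.54e-05; 0.14, SE 0.050, adjusted p = 0.0249), and its p65 call was lost without library B of the p65 line (adjusted p = 0.0757), without library C of the line without an activation domain (adjusted p = 0.108) and with the effective-length offset (adjusted p = 0.201). SOX10 stood at 151, 152 and 152 TPM without an activation domain, and fell with p65 (122, 134 and 136 TPM; -0.25, SE 0.058, adjusted p = 8.83e-04) but did not pass with VP64 (-0.07, adjusted p = 0.317). MITF passed with VP64 (-0.33, SE 0.122, adjusted p = 0.0308), not with p65 (-0.23, SE 0.12, adjusted p = 0.117). The MITF call was lost without library B or C of the VP64 line (adjusted p = 0.0561 and 0.147), without library A or B of the line without an activation domain (adjusted p = 0.125 and 0.098) and with the effective-length offset (-0.19, adjusted p = 0.355). SNAI2 (-0.30 and -0.39), TBX2 (0.07 and -0.04) and FOXD3 (-0.16 and -0.44) did not pass.

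Among the other lineage genes, S100B stood at 39.9, 35.7 and 34.9 TPM without an activation domain, below all libraries of the VP64 line (50.1 to 57.2) and of the p65 line (43.6 to 47.9). It passed with VP64 (0.53, SE 0.134, adjusted p = 0.00242), not with p65 (0.23, SE 0.137, adjusted p = 0.164). MIA fell with p65 (-0.37, SE 0.104, adjusted p = 0.00464), as did its overlapping gene MIA-RAB4B (-1.96, SE 0.532, adjusted p = 0.0036). S100A1 fell with p65 (-0.48, SE 0.179, adjusted p = 0.0291), a call lost without library A or C of the p65 line (adjusted p = 0.0953 and 0.1), without library A, B or C of the line without an activation domain (adjusted p = 0.0572, 0.0572 and 0.0731) and with the effective-length offset (adjusted p = 0.176). BCL2A1 fell with p65 (-0.58, SE 0.209, adjusted p = 0.0238), a call lost without library B of the p65 line (-0.36, adjusted p = 0.157), without library B of the line without an activation domain (adjusted p = 0.0885) and with the effective-length offset (adjusted p = 0.0633). GPM6B fell with VP64 (-1.58, SE 0.460, adjusted p = 0.00617) and p65 (-1.15, SE 0.428, adjusted p = 0.0281), and both calls were lost with the effective-length offset (adjusted p = 0.364 and 0.19). The p65 call was also lost without library A or B of the p65 line (adjusted p = 0.0636 and 0.106), without library C of the line without an activation domain (-0.92, adjusted p = 0.135), without the low-count filter (adjusted p = 0.108) and in DESeq2 (adjusted p = 0.0871). CAPN3 stood at -0.21 and 0.08 and did not pass.

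Myeloid markers (CD14, ITGAM, CSF1R and PTPRC) summed to 15.1 to 21.8 TPM in the line without an activation domain and to 5.41 to 12.2 in the VP64 line and 7.56 to 8.14 in the p65 line without guides. Of the 4 markers, 3 fell with VP64 and 4 with p65, against 24% and 24.9% of all tested genes. None of the 4 was at 0 throughout. NGFR fell from 252, 246 and 252 TPM to 54.1, 47.5 and 48.2 with VP64 and 23.6, 28 and 28.6 with p65 (-2.36 and -3.27, SE 0.082 and 0.086), and CDH19 fell as well (-0.70 and -1.66, SE 0.185 and 0.201). The part of these changes in the values of the listed genes was not tested.

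**Figure D4:**
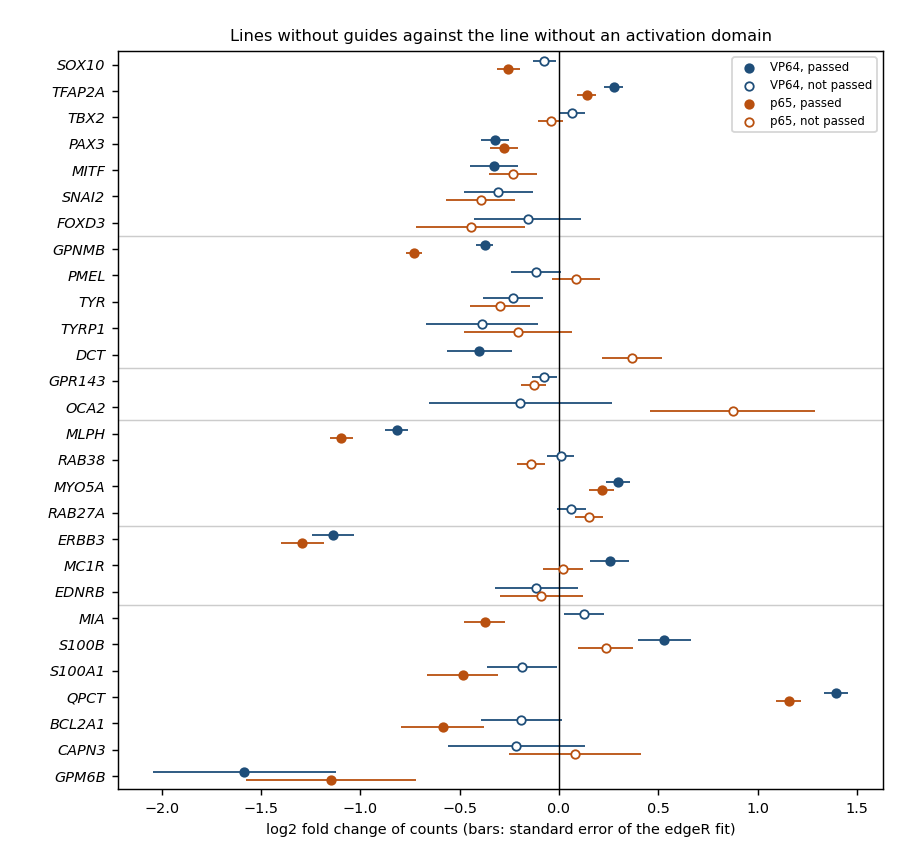
Log2 fold change of counts for the 28 tested genes in the lines without guides against the line without an activation domain; blue is VP64, orange p65, filled points passed an adjusted p of 0.05, and bars are 1 standard error. QPCT lies at 1.39 and 1.16, MLPH at -0.82 and -1.10, and ERBB3 at -1.14 and -1.29.

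The p65 lines were compared with the VP64 lines, first without guides. These comparisons use the same libraries as the guide comparisons above and are not separate from them. Here 1 of 28 genes rose and 4 fell, against 0.388% and 1.72% of all tested genes. DCT was higher with p65, at 1.36, 1.66 and 1.60 against 1.05, 0.86 and 0.77 TPM, without overlap (0.77, SE 0.160, adjusted p = 0.00908). GPNMB was lower (107 to 108 against 133 to 139 TPM; -0.36, SE 0.042, adjusted p = 1.86e-05), as were MLPH (-0.28, SE 0.060, adjusted p = 0.0125), MIA (-0.50, SE 0.103, adjusted p = 0.00863) and QPCT (-0.24, SE 0.056, adjusted p = 0.0226). GPNMB kept its call under every alternative tried, and the other 4 did not. DCT lost it without library C of the VP64 line (adjusted p = 0.0627), library B of the p65 line (adjusted p = 0.0536) or with the effective-length offset (adjusted p = 0.0512). MLPH lost it without library C of the VP64 line (adjusted p = 0.0627) or library A of the p65 line (adjusted p = 0.0622), and MIA without library A of the VP64 line (adjusted p = 0.0501), library B of the p65 line (adjusted p = 0.0717) or with the offset (adjusted p = 0.0573). QPCT lost it without library B or C of either line (adjusted p = 0.126 and 0.102 for the VP64 line, 0.141 and 0.0576 for the p65 line) or with the offset (adjusted p = 0.149). Of these 5 calls, 3 were lost without library C of the VP64 line (DCT, MLPH and QPCT) and 3 without library B of the p65 line (DCT, MIA and QPCT).

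With guides, none of the 28 genes was higher with p65 and 8 were lower, against 3.72% and 4.2% of all tested genes. ERBB3 was at 8.51 to 10.6 TPM with p65 and 12.3 to 17.9 with VP64 (-0.73, SE 0.099, adjusted p = 4.06e-05), a call lost with the effective-length offset (-0.58, adjusted p = 0.0557). GPNMB was at 135 to 146 and 172 to 194 TPM (-0.35, SE 0.042, adjusted p = 7.65e-06), SOX10 at 161 to 190 and 206 to 237 (-0.27, SE 0.057, adjusted p = 0.00386), and MLPH at 37.2 to 38.8 and 47.2 to 49.7 (-0.39, SE 0.062, adjusted p = 2.19e-04). MIA (-0.68, SE 0.099, adjusted p = 1.06e-04) and QPCT (-0.30, SE 0.054, adjusted p = 8.09e-04) were lower too. TBX2 was lower by a small amount (-0.23, SE 0.066, adjusted p = 0.0301), a call lost without library A of the VP64 line (adjusted p = 0.118), library A or C of the p65 line (adjusted p = 0.113 and 0.147), with only the libraries compared (adjusted p = 0.103) and with the offset (adjusted p = 0.27). S100B was at 94.2 to 151 and 154 to 195 TPM (-0.43, SE 0.109, adjusted p = 0.015), a call lost without library B of the VP64 line (adjusted p = 0.121), without library C of the p65 line (-0.26, adjusted p = 0.0868), with only the libraries compared (adjusted p = 0.0753), with the offset (adjusted p = 0.101) and in DESeq2 (adjusted p = 0.0595). CDH19 was lower with p65 as well, without guides (-0.96, SE 0.212) and with guides (-1.40, SE 0.195), and so was NGFR (-0.91 without and -0.92 with guides, SE 0.084 and 0.081). With guides the collagen gene COL1A1 was higher (0.68). Their part in these values was not tested.

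The difference between the guide effects, p65 minus VP64, was tested directly. DCT was the only one of the 28 genes to pass, with a negative difference, against 0.187% of all tested genes with a negative and 0.769% with a positive difference that passed. The difference for DCT was -1.08 on the log2 scale (SE 0.231, adjusted p = 0.0192). The call was lost without library B of the VP64 line with guides (-0.98, adjusted p = 0.0798), library C of the VP64 line without guides (-1.005, adjusted p = 0.0613) or library B of the p65 line without guides (-1.04, adjusted p = 0.0645), and with the effective-length offset (-1.22, adjusted p = 0.062), and kept in the other alternatives tried. The 6 genes that rose with VP64 guides but did not pass with p65 guides (CAPN3, GPM6B, OCA2, TBX2, TYR and TYRP1) are therefore not shown to differ between the pairs, and neither is RAB38, which passed with p65 only.

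**Figure D5:**
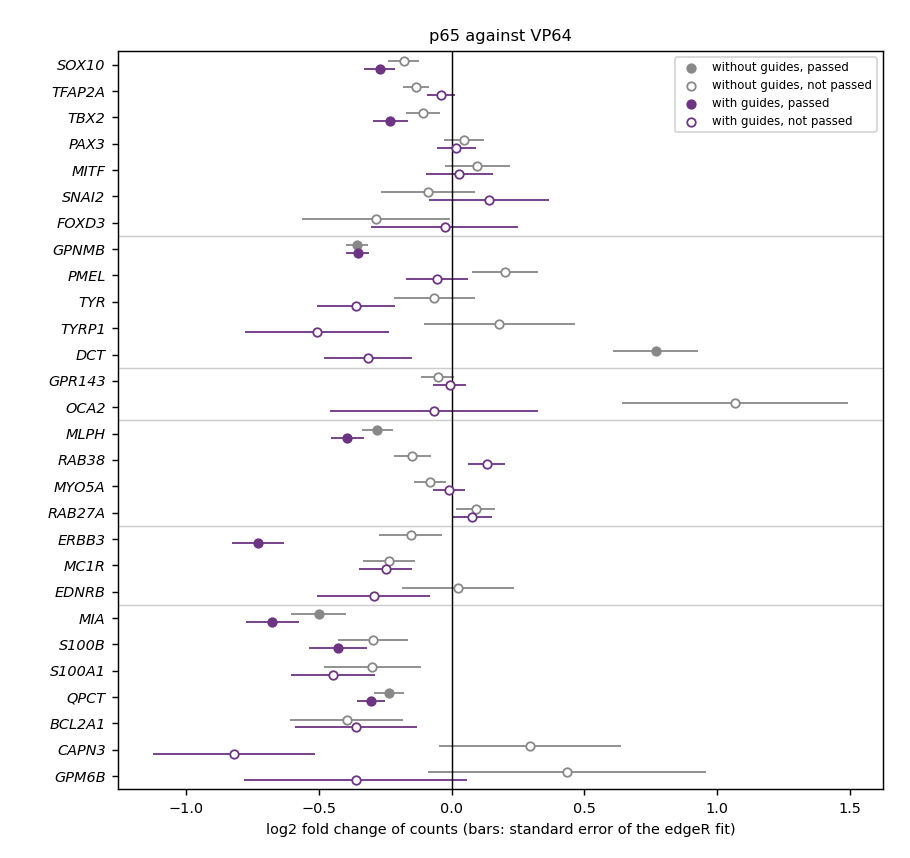
Log2 fold change of counts, p65 against VP64, for the 28 tested genes; grey points are the lines without guides, purple points the lines with guides, filled points passed an adjusted p of 0.05, and bars are 1 standard error. DCT lies at 0.77 without and -0.32 with guides, and ERBB3 at -0.15 and -0.73.

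Other genes of the same pathways were read from lists of ligands, regulators, biogenesis factors and targets. The background for each count below is the share of all tested genes, 19.3% rising and 21.3% falling with VP64 guides and 18.7% and 20.2% with p65 guides. Of the 10 ligands of the lineage receptors, 4 were tested, and with VP64 guides 1 rose and 3 fell, while with p65 guides 1 rose and 1 fell. NRG1, a neuregulin that ERBB3 binds, fell in both (-0.58 and -0.31, SE 0.077 and 0.078), and NRG2 rose in both (0.64 and 0.57, SE 0.097 and 0.099). KITLG, the ligand of KIT, fell with VP64 (-0.61, SE 0.116, adjusted p = 2.21e-04) and stood at -0.03 with p65. EDN1, the endothelin that EDNRB binds, stood at 19.1, 16.0 and 19.8 TPM without and 7.74, 6.05 and 7.40 with VP64 guides (-1.39, SE 0.158, adjusted p = 3.23e-07), and at 15.7, 14.9 and 15.9 against 10.2, 10.3 and 17.5 TPM in the p65 lines (-0.26, SE 0.145, adjusted p = 0.164). The difference between these effects passed (1.13, SE 0.216, adjusted p = 0.00783).

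Of 17 regulators and relatives of MITF, 5 rose and 4 fell with VP64 guides (against 19.3% and 21.3% of all tested genes), and 4 rose and 3 fell with p65 guides (against 18.7% and 20.2%), which lies near the background. TFEC, a member of the MITF family, stood at 0.05, 0.15 and 0.12 TPM in the VP64 line without guides and at 0.41, 0.26 and 0.30 with guides. In the p65 lines it went from 0.13, 0.33 and 0.11 to 1.87, 2.05 and 1.41 TPM. The log2 fold change was 1.52 (SE 0.316, adjusted p = 4.57e-04) and 3.80 (SE 0.264, adjusted p = 2.26e-10), and the difference between them passed (2.28, SE 0.441, adjusted p = 0.0089). CTNNB1, the β-catenin gene, rose in both (0.27 and 0.22, SE 0.037 each), USF2, an E-box factor, rose with VP64 (0.15) and stood at 0.10 with p65, the coactivator CREBBP fell in both (-0.34 and -0.43), and HINT1 passed in neither (-0.07 each).

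Of 23 genes of melanosome biogenesis, all tested, 5 rose and 1 fell with VP64 guides and 5 rose and 3 fell with p65 guides. The rises lie near the background of 19.3% and 18.7%, and the falls below that of 21.3% and 20.2%. HPS1, a subunit of a complex lost in Hermansky-Pudlak syndrome, rose in both (0.53 and 0.44, SE 0.056 and 0.057). LYST, the Chediak-Higashi gene, rose in both (0.61 and 0.37, SE 0.065 and 0.064), AP3D1, an adaptor subunit, rose in both (0.17 and 0.14), and BLOC1S2 fell in both (-0.19 and -0.17). RAB32, the relative of RAB38, passed in neither (-0.12 and 0.08). Of 14 tested further targets of MITF, 5 rose and 5 fell with VP64 guides and 4 rose and 5 fell with p65 guides, beside the same background shares. MET, the hepatocyte growth factor receptor, fell (-0.71 and -0.59, SE 0.041 each), LGALS3 rose (0.61 and 0.59), DIAPH1 fell (-0.36 and -0.41), HIF1A fell (-0.17 and -0.21) and APEX1 passed in neither.

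Markers of dedifferentiated melanoma were split as well, with 4 of 12 rising and 7 falling with VP64 guides, and 5 rising and 6 falling with p65 guides, beside 19.3% and 21.3%, and 18.7% and 20.2%, of all tested genes. EGFR fell in both (-0.70 and -0.76, SE 0.058 each), as did FOSL1 (-0.25 and -0.22), and LOXL2 rose in both (0.72 and 0.67). FN1, the fibronectin gene, stood at 0.03 with VP64 and rose with p65 guides (0.80), a difference that passed (0.77, SE 0.107, adjusted p = 3.13e-04).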

How the data were processed

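RNA from MelJuSo lines was sequenced in 15 libraries, 3 for each of 5 lines. The authors deposited 1 table a library, whose expected counts (estimated reads per gene, from RSEM) were used here, and the deposited TPM values and effective lengths (another unit, in bases) stand in the same tables, per the file headers. STAR, RSEM and hg38 are named in the submitters' processing notes. Their versions and strand settings were not given in the sources used here. The tables have 58813 entries each, of which 92 are spike-ins and were left out.

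Expected counts were rounded and fitted in edgeR 4.0.16 (R 4.3.3, limma 3.58.1) by quasi-likelihood, with TMM factors of 0.983 to 1.014, 1 coefficient per line and filterByExpr at a minimum count of 10. This left 14961 genes with a biological coefficient of variation of 5.45%. Benjamini-Hochberg adjustment ran over all tested genes within each of 7 comparisons, with a threshold of 0.05. Standard errors are the size of the log2 fold change divided by the square root of the F statistic. CPM values were computed from rounded counts. Depth leaves genes below about 0.192 CPM undetectable in the shallowest library. The fit was tested on simulated data before use.

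All listed genes are named, along with CD4 and, from each further list, up to 3 genes with the highest TPM and up to 2 others with the smallest p in a guide comparison. Some of the genes this rule or the marker lists name are not reported here. The members and lists were chosen with earlier results of these data known. Promoter letters come from RefSeq windows on GRCh38.p14. Alternatives were DESeq2 size factors, the DESeq2 1.42.0 Wald test, no low-count filter, a minimum mean of 1 CPM, a replicate block, unrounded counts, an effective-length offset, only the libraries compared, and leaving out each library.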

Additional observations from a re-analysis of the deposited data

Results flagged for a closer look

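DCT, the dopachrome tautomerase gene, was marked because its response to the guides differed between the 2 pairs of lines: the guide effect in the p65 lines minus that in the VP64 lines was -1.08 on the log2 scale (SE 0.231, adjusted p = 0.0192, edgeR). All 3 p65 libraries with guides were below the 3 without (0.88 to 1.07 against 1.36 to 1.66 TPM), and all 3 VP64 libraries with guides were above the 3 without (1.21 to 1.49 against 0.77 to 1.05 TPM). The VP64 guide effect alone did not pass (0.41, SE 0.167, adjusted p = 0.0558). The call for the difference was lost with the effective-length offset (adjusted p = 0.062) and without some of the single libraries. For p65 against VP64, DCT stood at 0.77 without guides (adjusted p = 0.00908) and -0.315 with guides (adjusted p = 0.295). These 2 values come from the same libraries as the difference and are not separate results. Groups of 3 libraries are too small for a test of single outlying libraries.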

How the results depend on the processing

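Of 70 values that passed in the 28 tested genes, 45 passed under every alternative. Over 983 alternative values of these 70, 883 stayed on the same side of the threshold, 100 no longer passed and 0 changed direction. The effective-length offset lost 23 of the 70 and the other single alternatives 0 to 9 each. With the replicate block, 1 of 70 was lost, GPR143 with VP64 guides (log2 fold change 0.165, adjusted p = 0.0508). Same-letter correlations of deviations ran from -0.211 to 0.19 over 9384 genes. With 3 libraries a line, these values show no clear pairing by letter but cannot exclude one.

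Counts of genes that passed moved by over 1.5 times in 3 comparisons. For p65 against VP64 without guides the count of 5 became 2 with the effective-length offset and ran from 2 to 4 with 1 library left out. For p65 against VP64 with guides the count of 8 became 5 with the offset. For the difference of guide effects the count of 1 became 2 without the low-count filter, 0 with the offset and 2 in DESeq2, and ran from 0 to 2 with 1 library left out. The count of 3 silent genes ran from 1 to 4 with 1 replicate letter left out: without B, IRF4 and SLC24A5 were low, without C, SLC45A2 became silent, and without A, MLANA became silent and IRF4 low. With limits of 0.5 and 0.2 TPM, 26 genes were expressed and 4 silent. The cause of these changes was not tested.

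Reads of genes that overlap others are uncertain. Among the tested genes, GPR143, PAX3, PMEL, RAB27A, S100A1 and SOX10 overlap a protein-coding gene on the opposite strand, and strand use is not given. CAPN3, ERBB3, MC1R, MIA and RAB27A overlap one on the same strand. Further listed genes overlap antisense genes or genes of other types. Counts at or under 3 in most libraries limit SLC24A5, SLC45A2, KIT, MLANA, TRPM1 and IRF4. The scaling alternatives moved the median of all genes by less than 0.1 on the log2 scale.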
